A study of Mus musculus with 12 samples.

Results

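Lyz1 and Lyz2 are the paired mouse lysozyme c genes, and they are described here across all 6 conditions of a study of macrophages in collagen. They were selected on measured values, because Lyz2 had the highest transcript level in most collagen gel libraries and Lyz1 is its close copy. They make up 2 of the 34327 genes in the table. The overall level and rank of Lyz2 in gels, and gels set against plates in level or in IL-4 effect, are therefore given as description with no test. Comparisons within gels, by collagen density or IL-4, are tested; they use the same gel values, and the selection counted all 8 gel libraries alike.

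PolyA RNA was sequenced from bone marrow-derived macrophages (BMDMs) grown from C57BL/6J wild-type mouse marrow in L929-conditioned medium, to ask how collagen density and interleukin-4 (IL-4) together shape their transcripts. Cells were kept on tissue culture (TC) plates, or embedded in floating gels of rat tail collagen I at 2 mg/ml ("low-collagen") or 7 mg/ml ("high-collagen"). On each of the 3 substrates they were left untreated or given recombinant murine IL-4 at 20 ng/ml, and the sample titles give 24 h as the time. Each of the 6 conditions has 2 libraries, 12 in all, and nothing in the labels says that the libraries of a condition came from separate cultures or animals, so p-values measure only the spread between these libraries, which may be technical. The gel and plate cells differ in shape of culture as well as in contact with collagen.

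Values are TPM, in which a gene's level per transcript length is expressed as a share of all transcripts of the library, scaled to a fixed total. Each library sums to between 999658 and 999723 TPM, so the table holds no read depth, and a rise of 1 abundant gene lowers the TPM of the others. Because these are bulk samples, fewer cells of a type and less RNA per cell cannot be told apart.

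Lysozyme c cleaves the peptidoglycan of bacterial cell walls and is stored in and secreted from macrophages, neutrophils and Paneth cells. Mice carry a pair of genes for it: Lyz2 (lysozyme M) is the form of macrophages and other myeloid cells, and Lyz1 (lysozyme P) is the form of Paneth cells in the small intestine. IL-4 is the cytokine that drives macrophages towards the alternative, M2 state.

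The label of the cells was checked against marker genes. All 8 macrophage markers reached a mean of 1 TPM or more, with Cd68 highest at a mean of 2187 TPM, and their summed level lay between 4387 and 5193 TPM in the 12 libraries. Single markers went both ways with IL-4. On plates the Cd68 mean was 2257 TPM untreated and 2818 TPM with IL-4, and the Cd14 mean 727 and 79.7 TPM. Of 11 neutrophil markers 4 reached a mean of 1 TPM, the most abundant being Mmp8 at 10.1 TPM, and Ly6g was at 0 in all 12 libraries. The 5 dendritic cell markers summed to at most 2.02 TPM and the 7 fibroblast markers to at most 0.833 TPM in any library, with none at a mean of 1 TPM. Since neutrophils also carry lysozyme, the summed neutrophil markers are given for each library: 15.5 and 12.1 TPM in untreated and 15.6 and 24.1 TPM in IL-4-treated TC libraries, 38.03 and 52.6 TPM in untreated and 32.8 and 23.5 TPM in IL-4-treated low-collagen libraries, and 36.7 and 33.3 TPM in untreated and 24.9 and 23.7 TPM in IL-4-treated high-collagen libraries. This sum, like Lyz2, was higher in gels than on plates apart from 1 plate library and lower with IL-4 in gels; unlike Lyz2, it was not lower with IL-4 on plates and was lower in high- than in low-collagen gels without IL-4. Its part in the Lyz2 values was not tested.

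Lyz2 (ENSMUSG00000069516) and Lyz1 (ENSMUSG00000069515) lie side by side on chromosome 10 of GRCm38, both on the minus strand, Lyz2 at chr10:117277331-117282321 and Lyz1 at chr10:117287797-117292868. The genes are 5475 bases apart, and each is annotated as protein coding with 4 exons. The Lyz2 transcript has 1316 bases and the Lyz1 transcript 1263 bases, and the coding sequences have 447 bases each. They differ at 22 positions and are 95.1% identical. The first 240 bases of each coding sequence, which hold 17 of the 22 differences, are shown to mark where most of the differences lie. Capitals mark the bases that differ.
Lyz2: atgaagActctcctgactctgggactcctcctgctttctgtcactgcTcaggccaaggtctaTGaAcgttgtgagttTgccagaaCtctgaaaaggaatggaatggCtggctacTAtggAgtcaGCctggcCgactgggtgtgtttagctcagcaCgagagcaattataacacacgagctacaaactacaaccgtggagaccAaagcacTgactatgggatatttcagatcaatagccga
Lyz1: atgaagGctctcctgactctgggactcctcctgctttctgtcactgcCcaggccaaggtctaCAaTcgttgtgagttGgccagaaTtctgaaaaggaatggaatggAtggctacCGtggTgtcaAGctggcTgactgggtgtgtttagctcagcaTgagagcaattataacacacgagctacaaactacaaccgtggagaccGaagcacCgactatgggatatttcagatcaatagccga

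The likeness matters for the values because the reads were 38 bases long and were assigned to transcripts by words of 31 bases. Of the 1286 such words in the Lyz2 transcript 422 (32.8%) also occur in Lyz1, and the same 422 are 34.2% of the 1233 words of Lyz1. Neither transcript shares a word of this length with any other gene of the annotation searched, and the longest run common to both is 118 bases. A 38-base read window lies wholly in shared words at 25.3% of the positions of Lyz2 and 26.3% of those of Lyz1. For paired reads at the ends of a fragment taken as 200 bases, both reads lie in shared words for 79 of 1117 positions of Lyz2 (7.07%) and 80 of 1064 positions of Lyz1 (7.52%). Most fragments can thus be told apart by sequence, and a minority cannot.

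Lyz2 was measured at very high levels in every library. On TC plates it stood at 24116.5 and 23418.2 TPM in the untreated libraries and at 13223 and 13302.8 TPM with IL-4. In low-collagen gels it stood at 38487.2 and 41170.5 TPM untreated and at 25899.8 and 27207.1 TPM with IL-4. In high-collagen gels it stood at 48876.6 and 48901.1 TPM untreated and at 32786.4 and 30936 TPM after IL-4. Libraries given IL-4 lay below the untreated libraries of the same substrate in all 3 substrates, with no overlap, and the gels lay above the plates in either state.

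The condition means of Lyz2, from highest to lowest, were 48889 ± 17.3 TPM (SD, n = 2 in each condition) in untreated high-collagen gels, 39829 ± 1897 TPM in untreated low-collagen gels, 31861 ± 1308 TPM in IL-4-treated high-collagen gels, 26553 ± 924 TPM in IL-4-treated low-collagen gels, 23767 ± 494 TPM on untreated plates and 13263 ± 56.4 TPM on plates with IL-4. No 2 neighbours in this order overlapped, and their means differed 1.23-fold, 1.25-fold, 1.20-fold, 1.12-fold and 1.79-fold in turn. The closest pair was low-collagen gels with IL-4 and untreated plates, whose libraries were 1783 TPM apart at the nearest. Over the 12 libraries Lyz2 spanned a 3.70-fold range.

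Lyz1 was measured at a small fraction of that level. On TC plates it stood at 13.3 and 10.7 TPM untreated and at 5.35 and 6.57 TPM with IL-4. In low-collagen gels it stood at 20.3 and 24.96 TPM untreated and at 12.2 and 14.0 TPM with IL-4, and in high-collagen gels at 22.6 and 24.1 TPM untreated and at 20.1 and 15.6 TPM with IL-4. Within each substrate the IL-4 libraries lay below the untreated ones, as for Lyz2, and the range over all libraries was 4.66-fold.

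The conditions fell in the same order for Lyz1 as for Lyz2, with less separation. Untreated high-collagen gels (23.3 ± 1.03 TPM, SD, n = 2) and untreated low-collagen gels (22.6 ± 3.31 TPM) overlapped. High-collagen gels with IL-4 (17.8 ± 3.15 TPM) came next, only 0.221 TPM below the nearest untreated low-collagen library, a gap well within the spread. Low-collagen gels with IL-4 (13.1 ± 1.27 TPM) and untreated plates (11.98 ± 1.84 TPM) overlapped, and plates with IL-4 (5.96 ± 0.863 TPM) were lowest, below every other library.

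**Figure D1:**
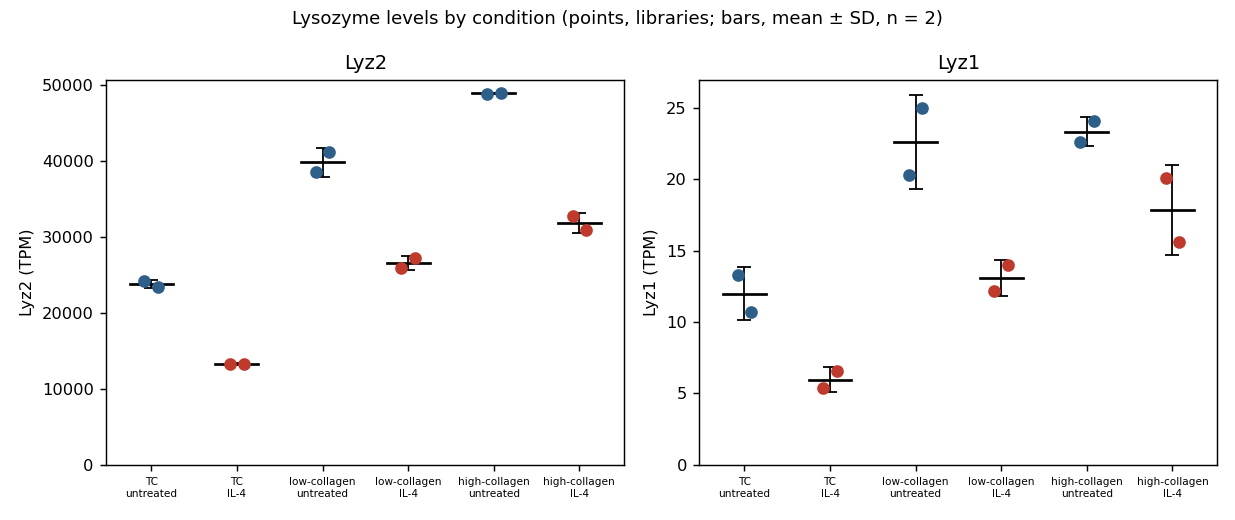
Level of Lyz2 (left) and Lyz1 (right) in TPM in each condition; points are libraries (blue untreated, red IL-4), wide bars the mean and error bars the SD of 2 libraries. The 2 axes differ in scale, with Lyz2 between 13223 and 48901 TPM and Lyz1 between 5.35 and 24.96 TPM.

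The rank of Lyz2 is the measure by which the genes were chosen. It was the gene with the highest TPM in 6 of the 8 gel libraries and in 0 of the 4 plate libraries. In the other 6 libraries, among them both low-collagen libraries with IL-4, the top gene was Ftl1, the ferritin light chain that stores iron. Just inside the first place, Lyz2 exceeded Ftl1 by a ratio of 1.12 in high-collagen IL-4 replicate 2. Just outside it, the ratio of Lyz2 to Ftl1 was 0.943 and 0.911 in the low-collagen IL-4 libraries. On plates the ratio was 0.852 and 0.821 untreated, and 0.436 and 0.452 with IL-4. Lyz2 had rank 2 in 3 of the plate libraries and rank 3 in TC IL-4 replicate 1, where Fth1, the ferritin heavy chain, stood at 13441 TPM against 13223 TPM for Lyz2. Ftl1 itself stayed within 24317 to 30317 TPM, while Lyz2 spanned the 3.70-fold range above. Lyz1 ranked between 5015 and 9383 among all genes.

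**Figure D2:**
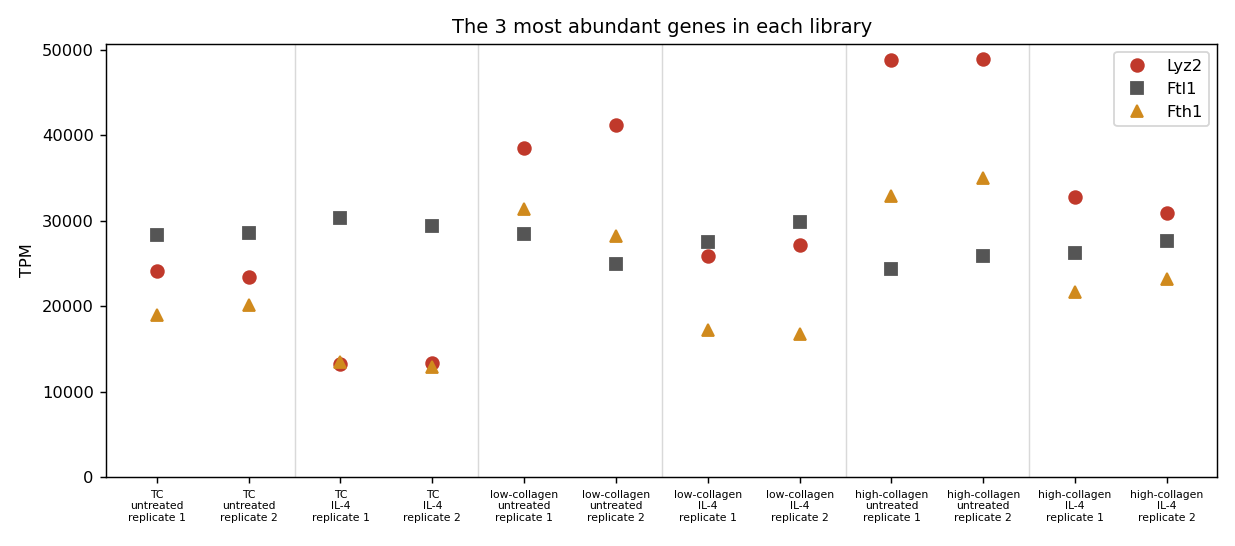
TPM of Lyz2 (circles), Ftl1 (squares) and Fth1 (triangles), the top 3 genes of every library, with the 12 libraries along the horizontal axis. Lyz2 is the highest point in 6 gel libraries and Ftl1 in the other 6 libraries.

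Lyz2 alone took 1.33% to 4.90% of all TPM of a library. Its share of the total averaged 4.90% in untreated and 3.19% in IL-4-treated high-collagen gels, 3.99% and 2.66% in low-collagen gels, and 2.38% and 1.33% on plates. The 20 most abundant genes of each library held 16.2% to 22.5% of its TPM, and Lyz2 made up between 8.19% and 21.8% of that.

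Gels had higher levels of both genes than plates, given as description. Untreated, the Lyz2 mean was 1.68-fold that of plates in low-collagen gels and 2.06-fold that of plates in high-collagen gels. In IL-4-treated cells these ratios were 2.00 and 2.40. For Lyz1 the ratios were 1.89 and 1.95 untreated, and 2.19 and 2.99 with IL-4. Every gel mean was thus above the plate mean of the same IL-4 state for both genes.

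To ask whether IL-4 changed lysozyme transcripts, each substrate was tested on log2(TPM + 1) with limma over all genes with a mean of at least 1 TPM, a call being a Benjamini-Hochberg adjusted p under 0.2. Fold changes below are on this scale, which understates those of low genes. The 3 IL-4 comparisons use separate libraries, but the gel comparisons share 1 estimate of the spread over the 8 gel libraries and the plate comparison draws it from all 12. In TPM, which are shares, the typical gene of the table was lower with IL-4 as well. Over all genes tested the median log2 fold change was -0.19 in low-collagen gels, -0.10 in high-collagen gels and -0.06 on plates. Rescaling each library by the median ratio of its genes moved these to -0.01, 0.00 and -0.01. Such rescaling brings the median near 0 by its design, and more even splits of calls after it follow from that. Lysozyme changes are therefore also given relative to the median.

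In low-collagen gels the measured levels of both genes were lower with IL-4. Lyz2 fell by 0.58 on the log2 scale (SE 0.0562, 95% interval -0.71 to -0.45, limma adjusted p = 0.000251), from 39829 to 26553 TPM, or by 33.3%. Lyz1 changed by -0.74 (SE 0.152, interval -1.10 to -0.39, adjusted p = 0.00914), from 22.6 to 13.1 TPM. Relative to the median of all genes the changes were -0.39 for Lyz2 and -0.55 for Lyz1. Calls were common in this comparison: 53.6% of 11852 genes were called, 13.2% higher and 40.4% lower. The 2 of 2 lysozymes called lower thus stand against a background in which lower calls were frequent. The 2 calls cannot be taken as independent, here or in the comparisons below. Lyz1 transcripts and Lyz2 reads assigned to Lyz1 cannot be told apart from these values. After median-ratio rescaling the split of all calls turned from 1567 higher and 4784 lower to 2739 higher and 2598 lower, and both lysozymes remained called lower, at -0.39 and -0.56.

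In high-collagen gels Lyz2 fell by 0.62 (SE 0.0562, interval -0.75 to -0.49, limma adjusted p = 0.000283), from 48889 to 31861 TPM, a decrease of 34.8%. Lyz1 changed by -0.38 (SE 0.152, interval -0.73 to -0.03, adjusted p = 0.139), from 23.3 to 17.8 TPM. Relative to the median the changes were -0.52 and -0.28. The background was 34.3% of 11852 genes called, 11.5% higher and 22.8% lower; median-ratio rescaling turned 1366 higher and 2698 lower into 2069 and 1723. The Lyz2 call held under that rescaling at -0.51. The Lyz1 call did not: it was lost at -0.27 with median-ratio rescaling, with no filter on low genes, and without high-collagen untreated replicate 1, at -0.42, high-collagen untreated replicate 2, at -0.34, or high-collagen IL-4 replicate 2, at -0.21 (adjusted p 0.101 to 0.470 over all alternatives).

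On plates the measured levels of both genes fell as well. Lyz2 fell by 0.84 (SE 0.0488, interval -0.95 to -0.73, limma adjusted p = 1.75e-06), from 23767 to 13263 TPM, or by 44.2%. Lyz1 changed by -0.90 (SE 0.164, interval -1.26 to -0.53, adjusted p = 0.00319), from 11.98 to 5.96 TPM. Relative to the median the changes were -0.78 and -0.84. Of 11865 genes 38.8% were called, 14.7% higher and 24.0% lower, and median-ratio rescaling turned 1745 higher and 2853 lower into 2234 and 2407, with Lyz2 at -0.78. In TPM, the loss of Lyz2 was the largest difference of any gene in each of the 3 IL-4 comparisons, which follows in part from its level.

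Set among all genes by log2 fold change, Lyz2 was less extreme than its TPM loss. In low-collagen gels 14.5% of genes had a lower log2 fold change than Lyz2, in high-collagen gels 7.26% and on plates 5.28%. For Lyz1 these were 8.57%, 17.5% and 4.52%. At least 536 genes thus had a lower log2 fold change than either lysozyme in each of the 3 comparisons.

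Over the 3 substrates together, a single value per gene was tested by permuting the IL-4 labels within substrates, two-sided and exact over 216 arrangements. The mean of the within-substrate differences in log2 TPM was -0.68 for Lyz2, -0.73 for Lyz1 and -0.68 for their sum, which is nearly all Lyz2, with both IL-4 libraries below both untreated libraries in all 3 substrates. Each had an exact permutation p of 0.00926, the smallest these arrangements can give, and 0.0247 after adjustment over the family of 8 tests. The same test was run on the share of Lyz1 in the summed TPM of the paired genes.

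Whether the fall differed between gels of different density was tested directly, and no difference was called: the IL-4 effect in high- minus that in low-collagen gels was -0.03 for Lyz2 (interval -0.22 to 0.15, limma adjusted p = 0.920) and 0.36 for Lyz1 (interval -0.14 to 0.86, limma adjusted p = 0.611). Both intervals include 0. Over the libraries left out the Lyz1 value ranged from 0.19 to 0.53. Median-ratio rescaling gave -0.12 for Lyz2, and the Lyz2 value turned to 0.01, 0.00 and 0.01 without low-collagen untreated replicate 1, low-collagen IL-4 replicate 2 or high-collagen IL-4 replicate 2. Only 0.363% of genes, 43 of 11852, were called in this comparison. Between plates and gels the difference, added after seeing the data, uses the gel values by which the genes were chosen, so it is given as description with no test. The log2 effect on plates minus that in low-collagen gels was -0.26 for Lyz2 (-0.40 after median-ratio rescaling) and -0.15 for Lyz1 (-0.30 to -0.01 over the libraries left out, and -0.28 after rescaling). The effect on plates minus that in high-collagen gels was -0.22 for Lyz2 and -0.52 for Lyz1. In TPM Lyz2 fell by 10504 TPM on plates, fell by 13275 TPM in low-collagen gels and fell by 17028 TPM in high-collagen gels.

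Collagen density was compared within each IL-4 state, so the comparisons use separate libraries, and each shares its libraries with an IL-4 comparison. Without IL-4, Lyz2 was 0.30 higher on the log2 scale in high- than in low-collagen gels (SE 0.0562, interval 0.17 to 0.43, limma adjusted p = 0.0709), at 48889 against 39829 TPM. Lyz1 was not called, at 0.05 (interval -0.30 to 0.40, adjusted p = 0.909). Of 11852 genes 8.02% were called, 3.23% higher and 4.79% lower, so a higher call was uncommon. The Lyz2 call was lost with median-ratio rescaling, at 0.32, with no filter on low genes, and without high-collagen untreated replicate 1 or 2, at 0.30 each, with adjusted p between 0.0230 and 0.577 over all alternatives. Lyz1 turned to -0.09, still not called, without low-collagen untreated replicate 1. The TPM gain of Lyz2 was the largest of any gene without IL-4 and had rank 3 by size with IL-4.

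With IL-4, Lyz2 was 0.26 higher in high- than in low-collagen gels (SE 0.0562, interval 0.13 to 0.39, limma adjusted p = 0.0427), at 31861 against 26553 TPM, and Lyz1 was 0.41 higher (SE 0.152, interval 0.06 to 0.77, adjusted p = 0.162), at 17.8 against 13.1 TPM. The background was 21.1% of genes called, 14.1% higher and 6.99% lower, and median-ratio rescaling turned 1672 higher and 828 lower into 1296 and 1274. Under that rescaling both calls were lost, with Lyz2 at 0.20 and Lyz1 at 0.35, as they were with no filter. The Lyz2 call was also lost without high-collagen IL-4 replicate 1, at 0.22. The Lyz1 call was lost without that library, at 0.24, or without low-collagen IL-4 replicate 1 or 2, at 0.32 and 0.51. With the replicate block the Lyz1 call was lost too, at 0.41. Adjusted p ranged from 0.0129 to 0.521 for Lyz2 and from 0.137 to 0.475 for Lyz1.

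Over both IL-4 states, permuting the collagen labels within state allows 36 arrangements and no exact permutation p below 0.0556, so this design cannot reach 0.05. Lyz2 had a mean difference of 0.28 in log2 TPM and reached that smallest p (adjusted 0.0889), as did the sum of the paired genes, at 0.28. Both high-collagen libraries exceeded both low-collagen libraries in both states for Lyz2. Lyz1 had a mean difference of 0.25 with an exact p of 0.167 (adjusted 0.222).

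**Figure D3:**
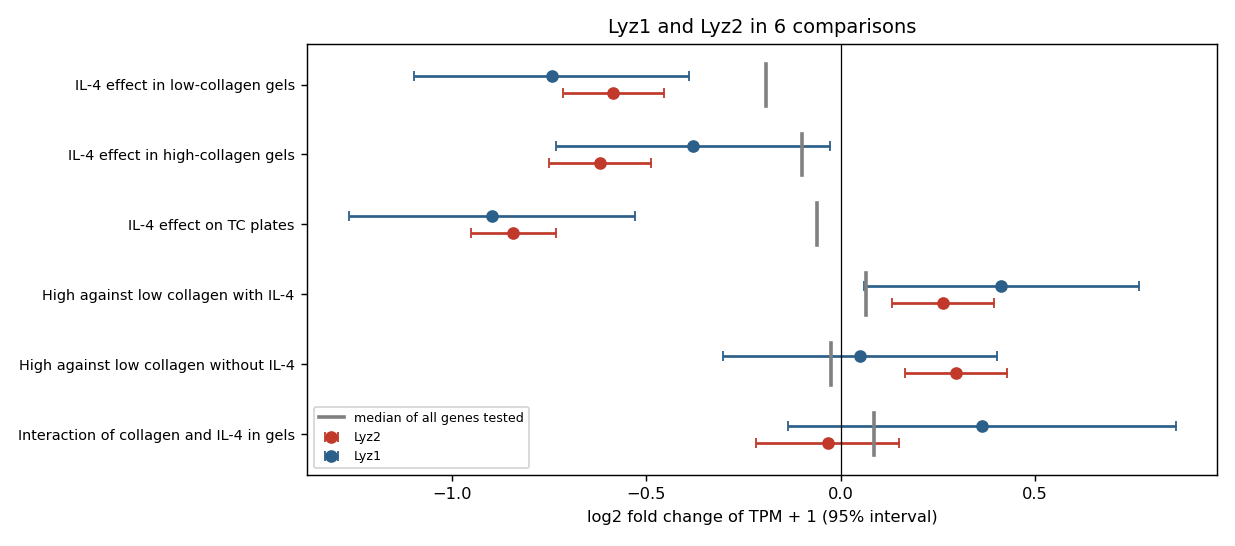
Log2 fold change of TPM + 1 with its 95% interval for Lyz2 (red) and Lyz1 (blue) in 6 limma comparisons, with the median of all genes tested as a grey bar. Both genes lie below the median in the 3 IL-4 comparisons; the Lyz1 interval is the wider in each, with an SE of 0.152 against 0.0562 in the single gel comparisons.

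The share of Lyz1 in the summed TPM of both genes does not depend on how a library is scaled. It lay between 0.0405% and 0.0611% in the 12 libraries, with a median of 0.0499%, so that Lyz2 exceeded Lyz1 by a factor of 1635 to 2471. By condition the share averaged 0.0503% on untreated plates, 0.0449% on plates with IL-4, 0.0566% and 0.0492% in low-collagen gels without and with IL-4, and 0.0477% and 0.0558% in high-collagen gels. The SD within conditions was 0.00559 percentage points and over all libraries 0.00602, so much of the spread lies between replicates. IL-4 against untreated differed by -0.0016 percentage points (exact permutation p = 0.685, adjusted 0.722), and high against low collagen by -0.00115 (exact p = 0.722, adjusted 0.722), the mean of -0.00891 without and 0.00661 with IL-4. The direction differed between substrates, with IL-4 minus untreated at -0.0054 on plates, -0.00746 in low-collagen gels and 0.00806 in high-collagen gels. Without high-collagen IL-4 replicate 2 the IL-4 difference turned to 0.000189 and the density difference to 0.00153, and without low-collagen untreated replicate 2 the latter turned to 0.000833.

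The Pearson r between the log2 TPM of Lyz1 and Lyz2 was 0.977 over 12 libraries, given as description. The points share libraries, scaling and, as the sequences above show, part of the reads. A gene so far below its near copy is uncertain in such a table: Lyz1 transcripts and Lyz2 reads assigned to Lyz1 cannot be told apart from these values. That limit applies to every Lyz1 result.

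**Figure D4:**
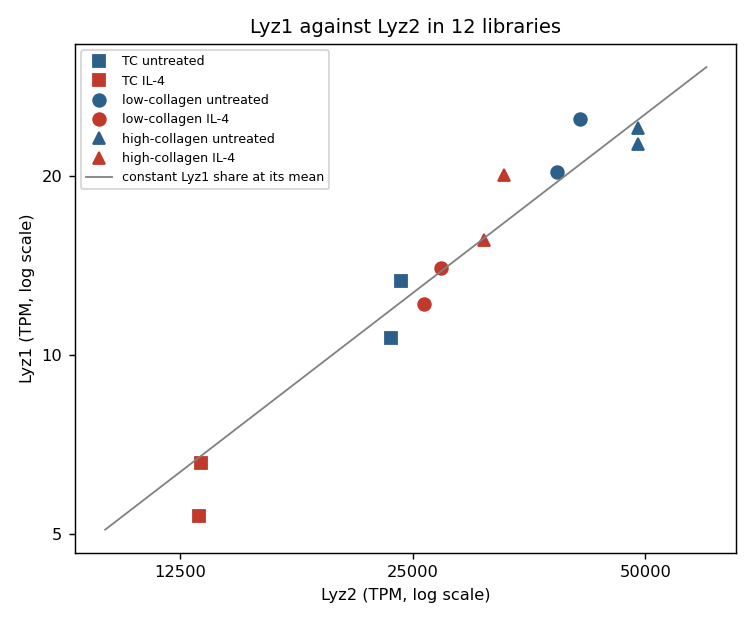
Lyz1 against Lyz2 in TPM on log axes, 1 point per library, with shape for the substrate and colour for IL-4 (red) or untreated (blue); the line marks a constant Lyz1 share at its mean of 0.0508%. The 12 points lie around the line, with shares between 0.0405% and 0.0611%.

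Because TPM are shares, the lysozyme change itself shifts every other gene. In low-collagen gels the summed lysozymes fell from 39851.5 to 26566.5 TPM with IL-4, which raises all other genes by 0.0199 on the log2 scale, or 1.39%. In high-collagen gels the shift was 0.0257, or 1.80%, and on plates 0.0155, or 1.08%. These shifts are upward, while the median gene went down, by -0.19, -0.10 and -0.06. With both lysozymes taken out of each total the medians were -0.21, -0.12 and -0.07, further from 0 than with the lysozymes in.

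Between collagen densities the lysozyme shift of other genes was smaller, -0.00791 (-0.547%) with IL-4 and -0.0137 (-0.946%) without, against medians of 0.06 and -0.02, which were 0.07 and -0.01 with both lysozymes taken out of each total. Between gels and plates it was -0.024 in low- and -0.0377 in high-collagen gels untreated, and -0.0196 and -0.0275 with IL-4. The largest of these, in untreated high-collagen gels, comes to -2.58%.

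The number of calls moved little when each library was rescaled to its total without both lysozymes. In the IL-4 comparisons it went from 6351 to 6563 in low-collagen gels, from 4064 to 4436 in high-collagen gels and from 4598 to 4739 on plates. Between densities it went from 2500 to 2553 with IL-4 and from 951 to 914 without. The lysozymes made up 9.72%, 15.6% and 9.12% of all TPM lost with IL-4 in low-collagen gels, high-collagen gels and plates, and 8.03% and 17.4% of all TPM gained in high- over low-collagen gels with and without IL-4.

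**Figure D5:**
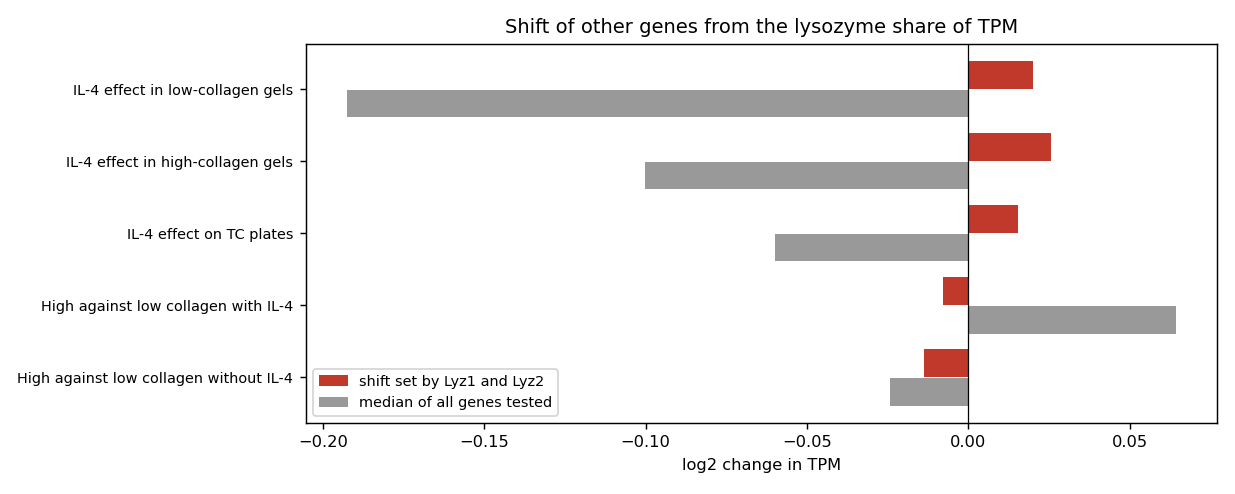
Log2 shift of all other genes that follows from the change in summed Lyz1 and Lyz2 TPM (red) and the all-gene median log2 fold change (grey) in 5 comparisons. The lysozyme shift lies between -0.0137 and 0.0257, and the median between -0.19 and 0.06.

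Among the 20 genes with the highest mean TPM, headed by Lyz2 at 30694 TPM, Ftl1 at 27616 and Fth1 at 22640, limma called 4 higher and 7 lower with IL-4 in low-collagen gels, 7 higher and 5 lower in high-collagen gels, and 4 higher and 8 lower on plates. Over all genes the shares called higher and lower were 13.2% and 40.4%, 11.5% and 22.8%, and 14.7% and 24.0% in turn. Ftl1 was not called in any of the 3. Fth1 was called lower in each, at -0.81, -0.60 and -0.57, so Lyz2 was not the only abundant gene to lose TPM.

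The promoters of the paired genes are shown because the measured levels of both were lower with IL-4 in each substrate, with the limit on Lyz1 given above. Both genes matched RefSeq promoter entries on GRCm38.p6, minus strand. The stretch runs from 250 to 51 bases before the RefSeq start, at chr10:117282323-117282522 for Lyz2 and chr10:117292919-117293118 for Lyz1. The RefSeq start of Lyz2 lies inside the gene span given above, whose 5′ end is at 117282321. The Lyz2 stretch is therefore closer to that end than the Lyz1 stretch is to its own, at 117292868. In a gapped alignment, chosen after an ungapped one gave 102 identical positions, 150 of 202 columns were identical (74.3%), 48 were mismatches and 4 were gaps. Capitals mark bases that differ or are unaligned.
Lyz2: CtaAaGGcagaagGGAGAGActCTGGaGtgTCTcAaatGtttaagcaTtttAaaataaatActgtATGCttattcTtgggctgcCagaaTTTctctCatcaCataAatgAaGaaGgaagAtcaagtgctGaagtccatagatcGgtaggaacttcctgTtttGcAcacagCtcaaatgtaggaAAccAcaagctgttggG
Lyz1: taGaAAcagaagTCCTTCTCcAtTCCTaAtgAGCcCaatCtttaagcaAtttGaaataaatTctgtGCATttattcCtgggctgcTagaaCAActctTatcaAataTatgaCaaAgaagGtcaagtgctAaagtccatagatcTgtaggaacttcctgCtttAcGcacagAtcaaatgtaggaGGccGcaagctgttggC

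These stretches were searched on both strands for 3 short motifs, of which 2 belong to factors of myeloid cells. AGGAAG, an ETS family core, had 2 matches in Lyz2, at positions 114 on the plus and 152 on the minus strand, and 1 in Lyz1, at 152 on the minus strand, and occurs in 23.9% of 32851 promoters of the same length. TTNNGCAA, a C/EBP family motif, had 1 match in Lyz1, at 42, and none in Lyz2, and occurs in 8.11% of promoters. TATAAA, the TATA box, had no match in either stretch and occurs in 9.14% of promoters over the same stretch. The stretch ends 51 bases before the RefSeq start, so a TATA box nearer the start could not be found. The search therefore does not show whether either promoter has one. Positions count from 1 at the 5′ end of the printed stretch, plus meaning the printed strand, and no 2 of the matches within a gene overlap. A match is a description of letters only.

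Within 100 kb of the paired genes the annotation lists 8 others, 4 of which are in the table. Yeats4, a chromatin reader subunit, had a mean of 48.0 TPM (38.9 to 59.8), and Cpsf6, a pre-mRNA cleavage factor, 31.1 TPM (20.3 to 54.4). Gm10936, annotated as a pseudogene, had 1.39 TPM (0 to 6.17) and 9530003J23Rik 0.066 TPM. The other 4 (4930423D24Rik, Gm26311, Gm48772 and Gm48903) were not analysed here.

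The genes most like Lyz2 over the 12 libraries, by Pearson r of log2(TPM + 1) among 9668 genes with a mean of at least 5 TPM, were Il18 (0.989), Rcbtb2 (0.984), Tmem176b (0.983), Ninj1 (0.982) and Thbs1 (0.981). For Lyz1 they were Mfng (0.977), Il18 (0.971), Gpr162 (0.970), Rcbtb2 (0.970) and Ms4a7 (0.970). Il18, which encodes a cytokine, had means of 36.4 TPM in untreated high-collagen gels and 9.45 TPM on plates with IL-4, the same ends of the order as Lyz2. All points share 12 libraries and 6 conditions, and a high r was common: 400 genes exceeded 0.9 with Lyz2 and 283 with Lyz1. On this scale 8 genes were closer to Lyz2 than Lyz1 was, and none was closer to Lyz1 than Lyz2 was.

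Of 9 genes of the lysozyme family 3 passed the filter on low values, Lyz1, Lyz2 and Lyzl4, a lysozyme-like gene at 6.52 to 19.2 TPM, and the other 6 reached at most 0.463 TPM in any library. Lyzl4 stood at 9.20 and 15.03 TPM in low-collagen gels without and with IL-4, 9.48 and 17.7 TPM in high-collagen gels and 8.37 and 11.9 TPM on plates. It was called higher with IL-4 in all 3, at 0.65, 0.84 and 0.49 (limma adjusted p = 0.00991, 0.0051 and 0.0862), the opposite direction to Lyz1 and Lyz2. After median-ratio rescaling Lyzl4 was also called higher in each of them.

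A list made for sensing and transport of peptidoglycan, which lysozyme cleaves, held 18 genes, of which 13 were tested. A place on the list does not make a gene specific to peptidoglycan, and the receptor genes below are not read as such. With IL-4 limma called 3 higher and 9 lower in low-collagen gels (median log2 fold change -0.71), 3 and 8 in high-collagen gels (-0.49) and 1 and 6 on plates (-0.18), beside all-gene medians of -0.19, -0.10 and -0.06. Over all genes 13.2% were called higher and 40.4% lower in low-collagen gels, 11.5% and 22.8% in high-collagen gels and 14.7% and 24.0% on plates. In low-collagen gels the receptor genes Tlr2 and Cd14 changed by -2.15 and -1.81, Tlr2 from 47.8 to 9.95 TPM and Cd14 from 358 to 101 TPM. They changed by -1.64 and -1.44 in high-collagen gels and -2.68 and -3.17 on plates. Ripk2, of the same list, was called higher in low-collagen gels, high-collagen gels and on plates, at 0.84, 0.88 and 1.12. Between densities 3 listed genes were higher and 1 lower with IL-4 (median 0.05, or -0.01 after median-ratio rescaling) and 1 and 1 without (-0.09). After rescaling 0 were higher and 1 lower without IL-4. The medians stand beside 0.06 and -0.02 over all genes, of which 14.1% were higher and 6.99% lower with IL-4 and 3.23% and 4.79% without.

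Macrophage antimicrobial effectors, of which 11 of 14 were tested in gels and 10 on plates, had 3 higher and 5 lower calls with IL-4 in low-collagen gels (median -0.55), 2 and 6 in high-collagen gels (-0.47) and 0 and 7 on plates (-0.96). The 5 lower calls of 11 in low-collagen gels stand beside 40.4% of all genes called lower there, and the lower calls in high-collagen gels and on plates beside 22.8% and 24.0%. Mpeg1, the pore-forming perforin-2, changed by -0.80 in low-collagen gels, -0.47 in high-collagen gels and -1.73 on plates. Cyba, of the same list, went the other way in gels. It was called higher at 0.55 in low- and 0.38 in high-collagen gels, and was not called on plates, at -0.07. Between densities 4 were higher and 2 lower with IL-4 (0.12; 3 and 2 after rescaling), beside 14.1% and 6.99% of all genes, and 1 and 0 without (-0.02, or 0.01 after rescaling), beside 3.23% and 4.79%. Myeloid transcription factors, with 11 of 12 tested, had 3 higher and 6 lower calls in either gel (medians -0.26 and -0.34) and 3 and 3 on plates (-0.10); these stand beside the same shares of all genes, 13.2% higher and 40.4% lower in low-collagen gels, 11.5% and 22.8% in high-collagen gels and 14.7% and 24.0% on plates. Median-ratio rescaling turned the low-collagen split into 4 and 3. Klf4 was called higher in each, at 2.70, 2.49 and 2.29, and Irf8 lower in each, at -0.79, -0.67 and -0.37. Between densities 1 was higher and 1 lower with IL-4 (-0.08; 1 and 3 after rescaling), beside the same 14.1% and 6.99% of all genes, and 1 and 0 without (-0.06), beside 3.23% and 4.79%. In the interaction of density and IL-4 limma called 0 members of these 3 lists, beside 0.363% of all genes. At an unadjusted p under 0.05 were 3 of 13, 4 of 11 and 2 of 11 members, beside 9.88% of all genes, with medians of 0.14, 0.08 and -0.03 beside 0.09 over all genes.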

How the data were processed

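TPM of 12 libraries were used as the authors deposited them: per the paper's methods and the submitters' processing notes, 38-base paired reads of stranded mRNA libraries were quantified with kallisto 0.46.1 on the Ensembl GRCm38 cDNA, and how transcripts were summed to genes is not given in the sources used here. The table had 34456 lines, and 129 that repeated a symbol and all its values were dropped. The table keeps no depth, so counting error is unknown. Log2(TPM + 1) was tested with limma 3.58.1 in R 4.3.3, moderating variances along a trend with the mean and adjusting by Benjamini-Hochberg over all genes with a mean of at least 1 TPM in the libraries fitted, 8 gel libraries for gel comparisons and all 12 for plates. The procedure was tested on simulated data. Single values were tested by exact two-sided permutation. Figures were drawn with matplotlib 3.10.9, and other steps used numpy 2.4.6 and pandas 2.3.3 under Python 3.11.15. Coding sequences and shared words came from GENCODE, promoters from RefSeq; shared words were counted on 1 transcript a lysozyme gene.

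Named genes are the lysozymes, the 20 most abundant genes, those within 100 kb, the 5 most alike, and up to 4 called members a list with a mean of at least 5 TPM by size of change, of which some are printed; Itgam is on 2 lines and the higher was used. Lists were lysozyme family, peptidoglycan sensing and transport, macrophage antimicrobial effectors and myeloid transcription factors, with markers of macrophages, neutrophils, dendritic cells and fibroblasts. The members and lists were chosen with earlier results of these data known. Alternatives were a pseudocount of 0.1, no filter or a minimum of 5 TPM, median-ratio rescaling, totals without both lysozymes, both summed, a replicate block, other libraries in the fit, an adjusted p under 0.05 and each library left out.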

Additional observations from a re-analysis of the deposited data

How the results depend on the processing

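The fall of Lyz2 with IL-4 in each substrate was called lower in 39 of 39 values under alternatives, 3 of them with both genes summed, which is nearly Lyz2 alone (limma adjusted p 1.05e-06 to 0.0837), at -0.39 to -0.60 in low-collagen gels, -0.51 to -0.64 in high-collagen gels and -0.78 to -0.86 on plates with all libraries kept. Lyz1 kept its call in low-collagen gels and on plates. Of 158 values under alternatives for both genes over 12 results, 133 kept direction and side of the threshold. The ranks of Lyz2 were the same with repeated lines kept.

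With no filter, where genes near 0 enter the variance trend and the SE of Lyz2 rose from 0.0562 to 0.159 in single gel comparisons, the calls of Lyz1 for IL-4 in high-collagen gels (-0.38), of Lyz2 and Lyz1 for density with IL-4 (0.26 and 0.41) and of Lyz2 for density without IL-4 (0.30) were lost. Median-ratio rescaling ended the same calls at -0.27, 0.20, 0.35 and 0.32. Under it the SE of Lyz2 in single gel comparisons was 0.110. The Lyz2 density estimate moved from 0.26 to 0.20 with IL-4 and from 0.30 to 0.32 without. The cause of these losses was not tested. An adjusted p under 0.05 left out Lyz1 at -0.38 and 0.41 and Lyz2 at 0.30. With that threshold 3656, 1890 and 2710 genes were called for IL-4 in low-collagen gels, high-collagen gels and plates, 561 and 63 for density with and without IL-4, 7 for the interaction, and 1220 and 792 for plates minus low- and high-collagen gels. No filter gave 567 for density without IL-4 and 66 for the interaction, and all 12 libraries in the fit gave 95 for the interaction. Lyz2 for plates minus low- and high-collagen gels, a description, was -0.26 and -0.22 with no filter and -0.40 and -0.28 with median-ratio rescaling.

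Nothing in the labels pairs same-numbered libraries of different conditions. Their deviations correlated at -0.123 to 0.109, and whether they share an animal or a day is not known. The replicate block gave 586 calls for density without IL-4 and 18 for the interaction, and Lyz1 for density with IL-4, at 0.41, was not called; no other lysozyme call changed.

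With each library left out, a lone library being assumed to vary like the others, Lyz1 for IL-4 in high-collagen gels ranged from -0.55 to -0.21, Lyz2 and Lyz1 for density with IL-4 from 0.22 to 0.30 and 0.24 to 0.58, Lyz2 and Lyz1 without IL-4 from 0.25 to 0.35 and -0.0937 to 0.19, the Lyz2 and Lyz1 interaction from -0.0824 to 0.0148 and 0.19 to 0.53, plates minus low-collagen gels from -0.31 to -0.21 for Lyz2 and -0.30 to -0.00959 for Lyz1, and plates minus high-collagen gels from -0.26 to -0.18 for Lyz2 and -0.69 to -0.35 for Lyz1. The Lyz1 share difference ranged from -0.00339 to 0.000189 for IL-4 and from -0.00383 to 0.00153 for density. With 2 libraries a condition and no depth, these limits are set by the spread between libraries.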
